A study of Mus musculus with 6 samples.

Results

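The NCC cotransporter gene Slc12a3 and 6 genes of the WNK-SPAK pathway that acts on it (Wnk1, Wnk4, Stk39, Oxsr1, Klhl3 and Cul3) were followed along the tubule of sham and DOCA-salt mice. The 7 genes were taken by their symbols out of 33696 genes, each matched 1 row, and all 7 passed the filter on low counts in distal convoluted tubule (DCT) cells. Single kidney cells had been sequenced with the 10x Genomics 3′ method, 1 library per mouse, in 3 sham and 3 DOCA-salt mice, all of them male C57BL/6 animals aged 8 to 10 weeks. DOCA-salt mice had lost the left kidney and then carried a 50 mg pellet of deoxycorticosterone acetate (DOCA, a mineralocorticoid) and drank 1% NaCl for 21 days. Sham mice had sham surgery, normal water and no pellet. DOCA, salt and the loss of 1 kidney therefore cannot be told apart in these mice.

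NCC takes up sodium and chloride from the urine across the apical membrane of the DCT and is the target of thiazide diuretics. It is switched on by phosphorylation: WNK kinases, which sense chloride, phosphorylate the kinases SPAK (Stk39) and OSR1 (Oxsr1), and these phosphorylate NCC. WNK kinases are in turn marked for degradation by a ubiquitin ligase in which KLHL3 binds the WNK and cullin 3 (Cul3) is the scaffold. Mutations of WNK1, WNK4, KLHL3 and CUL3 cause familial hyperkalemic hypertension, and loss of NCC causes Gitelman syndrome. Most of this control acts on protein and its phosphorylation, which counts of RNA do not show.

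The values are unique molecular identifiers (UMIs, 1 per captured RNA molecule) summed per mouse over the cells of a segment and given as CPM, the share of a gene in that sum times 1000000. Of 76774 barcodes, 60561 passed the filters on depth and mitochondrial UMIs (at most 50%), and 55630 were left after removal of likely doublets. A library held 11058 to 14449 barcodes and 93172739 to 137819127 UMIs, and 699 barcodes occurred in more than 1 library, at most 1.98% of any library. Segments were named from marker genes, none of which was a member, and the members were also left out of the genes used to cluster. DCT cells numbered 192, 152 and 369 in the sham mice and 248, 309 and 308 in the DOCA-salt mice, 1578 in all. All 8 DCT markers had UMIs in their sum, and the summed level of these markers was 5759 to 6949 CPM in sham and 5627 to 6018 CPM in DOCA-salt mice. A cluster of DCT cells with few UMIs, described below, was named with 5 of the 8 detected. Between the groups, 376 of 9875 genes tested were higher (3.81%) and 246 lower (2.49%) in DOCA-salt DCT cells at an adjusted p below 0.05.

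The genes lie on different chromosomes. In the GENCODE annotation of GRCm39 they span chr8:95055829-95094170 (Slc12a3, + strand), chr6:119900930-120015660 (Wnk1, - strand), chr11:101151246-101168235 (Wnk4, + strand), chr2:68040789-68302723 (Stk39, - strand), chr9:119067498-119151509 (Oxsr1, - strand), chr13:58148042-58261469 (Klhl3, - strand) and chr1:80242639-80318537 (Cul3, - strand). The 3′ end of Wnk4, from which the reads of a 3′ method come, is overlapped by Coa3 on the opposite strand. Counts at a 3′ end do not tell the full-length WNK1 messenger from the kidney-specific short form, which starts inside the gene and lacks most of the kinase domain.

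The promoters of the 3 members that were lower in every DOCA-salt mouse in DCT cells are shown, as the stretches in which shared motifs were sought. They come from RefSeq on GRCm38.p6 (250 bases before to 50 bases after the start), 5′ to 3′ on the gene's strand, with matches to AGAACA (a half-site of steroid receptors), TATAAA (the TATA box) and GGGCGG (a GC box), on either strand, in capitals. Their positions in that build are chr8:94328958-94329257 (+) for Slc12a3, chr6:120038606-120038905 (-) for Wnk1 and chr13:58113598-58113897 (-) for Klhl3.
Slc12a3: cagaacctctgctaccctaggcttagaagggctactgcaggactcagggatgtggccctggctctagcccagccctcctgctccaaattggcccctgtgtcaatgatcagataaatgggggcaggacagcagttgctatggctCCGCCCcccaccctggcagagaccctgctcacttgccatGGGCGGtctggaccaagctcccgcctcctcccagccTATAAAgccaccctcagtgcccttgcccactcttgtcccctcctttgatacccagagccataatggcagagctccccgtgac
Wnk1: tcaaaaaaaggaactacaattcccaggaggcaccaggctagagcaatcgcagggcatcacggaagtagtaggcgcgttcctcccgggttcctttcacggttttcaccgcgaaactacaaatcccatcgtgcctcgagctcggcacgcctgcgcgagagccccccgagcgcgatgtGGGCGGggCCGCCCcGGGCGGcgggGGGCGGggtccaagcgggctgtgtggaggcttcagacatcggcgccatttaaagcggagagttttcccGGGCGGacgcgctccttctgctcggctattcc
Klhl3: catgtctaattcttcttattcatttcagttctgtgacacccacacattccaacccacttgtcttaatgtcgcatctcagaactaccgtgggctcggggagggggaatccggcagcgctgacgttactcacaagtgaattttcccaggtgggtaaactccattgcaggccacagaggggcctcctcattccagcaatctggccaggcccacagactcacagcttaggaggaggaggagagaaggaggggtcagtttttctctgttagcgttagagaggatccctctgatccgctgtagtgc
All 7 members matched a promoter. AGAACA was in none of the 7 windows and in 19.0% of all 32851 promoters. TATAAA was in 1 member, Slc12a3, and in 13.6% of all. GGGCGG was in 6 of the 7, all but Klhl3, and in 35.7% of all. The Slc12a3 window holds 2 and the Wnk1 window 5 GC boxes. GC content was 60.3% for Slc12a3, 63.7% for Wnk1 and 52.3% for Klhl3, against a median of 52.7%. These matches describe letters in the windows and nothing about binding. The Wnk1 window belongs to the start of the full-length form.

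Slc12a3 was highest in the DCT. Its mean level over the 6 mice was 6272 CPM ± 1171 (SD) in DCT cells and 743 CPM ± 222 in connecting tubule (CNT) cells, and the DCT was higher in 6 of 6 mice. The gap was wider in sham mice (7256 CPM ± 670 in DCT and 564 CPM ± 124 in CNT cells) than in DOCA-salt mice (5288 CPM ± 276 and 922 CPM ± 110). All other segments lay between 7.96 and 31.1 CPM. Endothelial cells, which do not make NCC, had 15.3 CPM ± 11.2, and proximal tubule (PT) cells 13.4 CPM ± 5.37, so levels of this size were read as free RNA in the droplets. DCT cells were 2.54% ± 1.01 of the cells of a sham mouse and gave 77.9% ± 2.91 of its Slc12a3 UMIs (SD, n = 3), and in DOCA-salt mice 3.07% ± 0.232 of the cells gave 76.4% ± 3.65. CNT cells gave a further 10.2% in sham and 12.2% in DOCA-salt mice.

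The kinases differed in their levels along the tubule. Among the tubule segments Wnk1 was highest in DCT cells (2421 CPM ± 487), then in CNT cells (1210 CPM ± 141), macula densa cells (638 CPM ± 189) and thick ascending limb (TAL) cells (478 CPM ± 179), down to 90.8 CPM ± 6.86 in the PT. Outside the tubule, dendritic cells (954 CPM ± 117), neutrophils (825 CPM ± 168), macrophages (787 CPM ± 72.0) and T or NK cells (778 CPM ± 100.5) had mean Wnk1 levels above that of the macula densa. TAL and type A intercalated cells (380.1 CPM ± 42.9) did not differ beyond their spread. DCT cells gave 17.1% of all Wnk1 UMIs in sham and 18.7% in DOCA-salt mice. Wnk4 was also highest in DCT cells (325 CPM ± 53.1), with TAL cells second (206 CPM ± 37.5), and macula densa and CNT cells (159 CPM ± 38.8 and 150 CPM ± 26.7) did not differ beyond their spread. Stk39, the gene of SPAK, had no DCT peak: macula densa (394 CPM ± 53.9), DCT (346 CPM ± 26.6), TAL (285 CPM ± 37.1) and principal cells (260 CPM ± 26.3) followed each other without a gap beyond the spread between neighbours. In the PT its level was 5.08 CPM ± 1.27. Oxsr1, the gene of OSR1, was lowest in the PT (14.0 CPM ± 1.5), below the next segment, the DCT (20.3 CPM ± 3.89), in 6 of 6 mice. From the DCT up to type B intercalated cells (28.3 CPM ± 4.49) no neighbours in the order of segments differed beyond their spread.

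The parts of the ubiquitin ligase had unlike profiles. Klhl3 was highest in DCT cells (577 CPM ± 216, 763 in sham and 392 in DOCA-salt mice), above CNT cells (183 CPM ± 11.6) in 6 of 6 mice. CNT and macula densa cells (167 CPM ± 62.8) did not differ beyond their spread. The Klhl3 level was 46.8 CPM ± 8.62 in TAL and 20.4 CPM ± 2.46 in PT cells. Cul3, a scaffold that many ligases share, was present in every segment at 101 to 185 CPM, highest in principal and lowest in TAL cells. DCT cells held 29.0% of the Klhl3 UMIs of a sham mouse and 1.64% of its Cul3 UMIs. In the plot of levels by cell class Slc12a3 and Klhl3 stand out in the distal nephron while Oxsr1 and Cul3 span a narrower range.

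**Figure D1:**
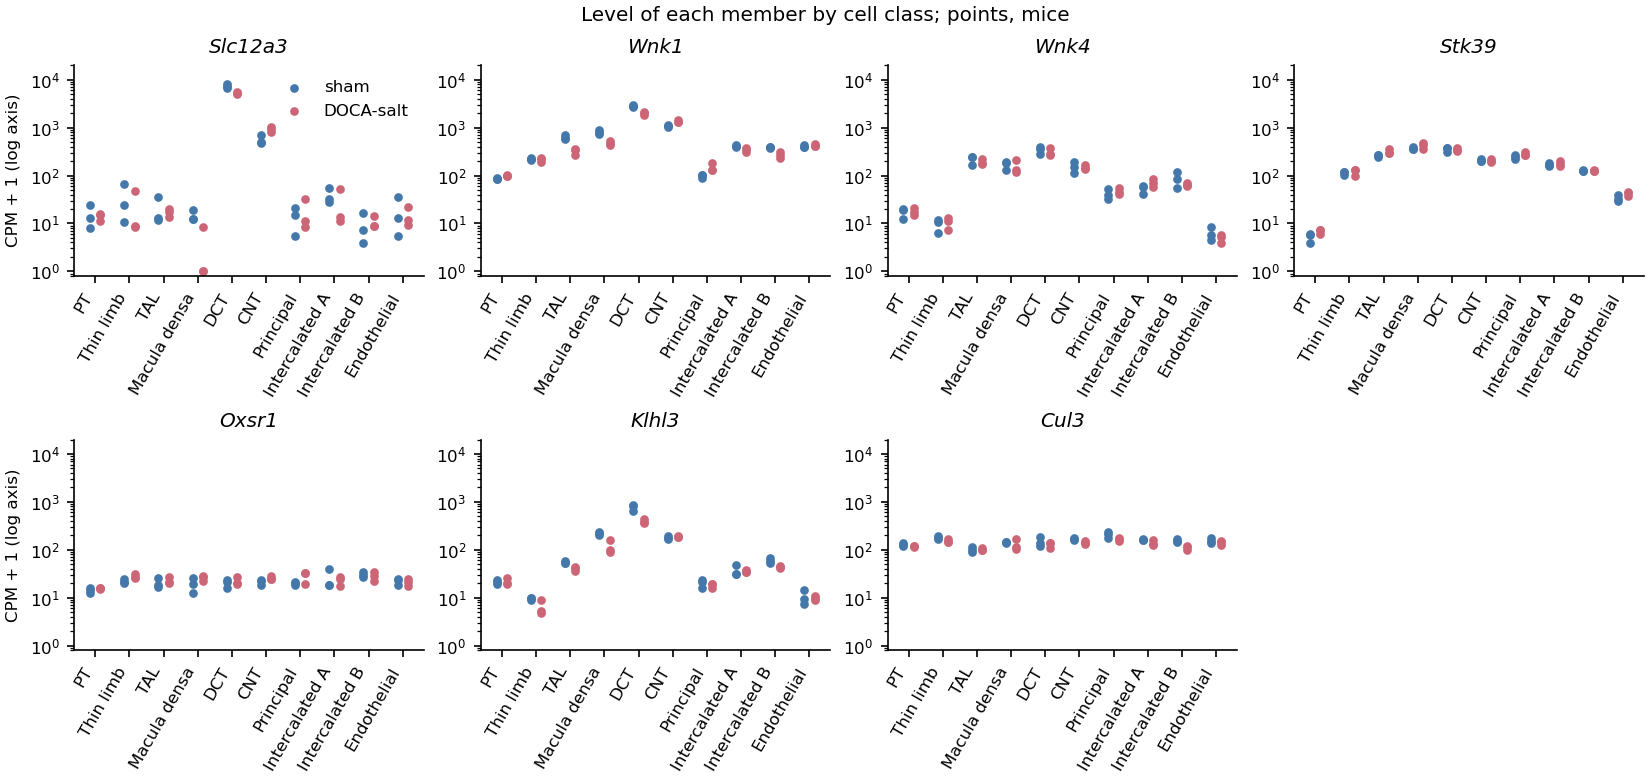
Level of each gene (CPM plus 1, log axis) in 9 tubule segments and endothelial cells, with 1 point per mouse (3 sham, blue, and 3 DOCA-salt, red). Slc12a3 falls from 6272 CPM in DCT cells to 743 CPM in CNT cells and to at most 31.1 CPM in the other segments, whereas Cul3 stays between 101 and 185 CPM.

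In DCT cells, Klhl3 and Wnk1 fell in DOCA-salt mice, and the other 5 members did not pass the test. Of the 7 members, 2 were lower and 0 higher (2.49% and 3.81% of all genes), and the median log2 change of the 7 was -0.31, against -0.01 for all genes tested. In 3 of 7 members (Slc12a3, Wnk1 and Klhl3) every DOCA-salt mouse lay below every sham mouse, which held for 6.23% of all genes tested.

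Slc12a3 had 6600.4, 7939 and 7229.9 CPM in the DCT cells of the 3 sham mice and 4979, 5511 and 5374 CPM in those of the 3 DOCA-salt mice. All sham mice were above all DOCA-salt mice, and the spread within a group was small (7256 CPM ± 670 against 5288 CPM ± 276; SD, n = 3). The log2 change was -0.58 ± 0.18 (SE), and its adjusted p of 0.0723 in edgeR's quasi-likelihood test did not pass the threshold. DESeq2 gave the same change with an adjusted p of 0.00491.

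Wnk1 had 2876, 2729.8 and 2965 CPM in sham and 1870, 2068 and 2019 CPM in DOCA-salt DCT cells. The groups did not overlap, and the means were 2857 CPM ± 119 and 1986 CPM ± 103. The log2 change was -0.65 ± 0.17 (adjusted p = 0.0308). It kept its direction in all alternatives, but the adjusted p was above 0.05 in 4 of the 6 fits that left out 1 mouse (0.102 without sham mouse 1, 0.122 without sham mouse 3, 0.188 without DOCA-salt mouse 1 and 0.131 without DOCA-salt mouse 3).

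Wnk4 had 349, 281 and 399 CPM in sham and 273, 366 and 284 CPM in DOCA-salt DCT cells. The groups overlapped, and the log2 change was -0.29 ± 0.19 (adjusted p = 0.449). Of the downstream kinases, Stk39 had 308, 368 and 372 CPM in sham and 325, 365 and 336 CPM in DOCA-salt mice, a log2 change of -0.16 ± 0.16 (adjusted p = 0.678). Oxsr1 had 22.3, 20.2 and 15.1 CPM in sham and 18.7, 19.0 and 26.6 CPM in DOCA-salt mice, a log2 change of 0.04 ± 0.25 (adjusted p = 0.962), and rested on only 63 and 154 UMIs per group. Neither kinase had mice that stood apart by group.

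Klhl3, the adaptor that brings WNK kinases to the ligase, showed the largest change of the 7. It had 802, 636 and 850.2 CPM in sham and 380.1, 432 and 363 CPM in DOCA-salt DCT cells. The lowest sham mouse was thus well above the highest DOCA-salt mouse, and the means were 763 CPM ± 113 and 392 CPM ± 35.8. The log2 change was -1.09 ± 0.18 (adjusted p = 0.00105), and it passed the threshold in all 17 alternatives, with log2 changes from -1.70 to -0.58. Cul3 had 118, 185 and 138 CPM in sham and 140.3, 110.0 and 137 CPM in DOCA-salt mice, with a log2 change of -0.31 ± 0.18 (adjusted p = 0.380). Sham mouse 2 was high, and the other 5 mice overlapped.

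**Figure D2:**
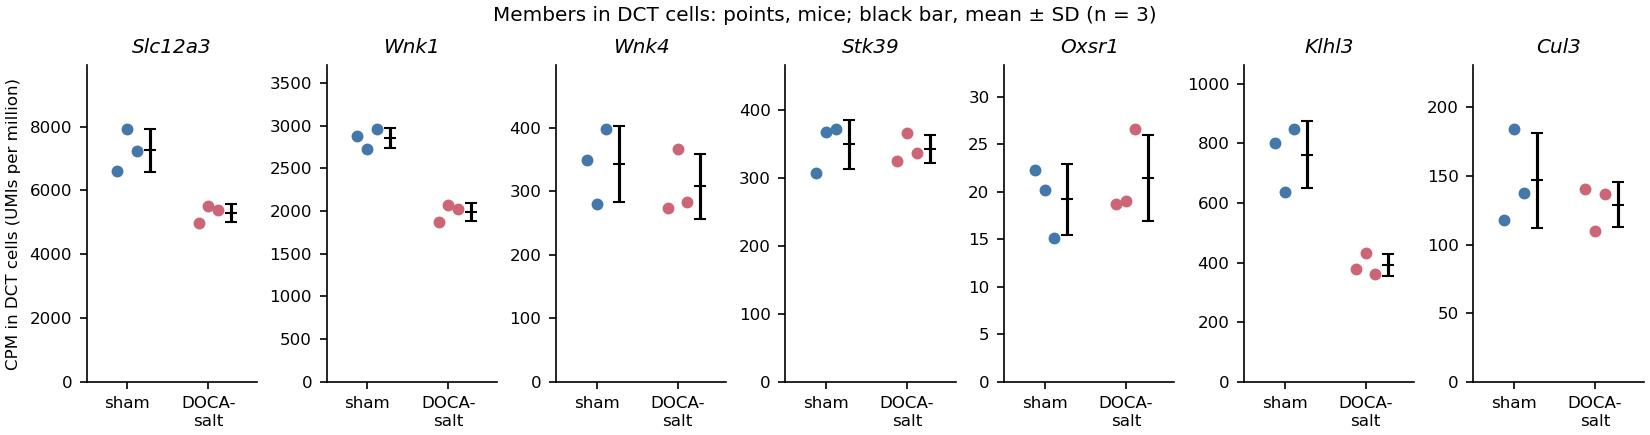
Level of each of the 7 genes in DCT cells (CPM, axes from 0), with 1 point per mouse and the mean ± SD of 3 mice beside them. The points of sham (blue) and DOCA-salt mice (red) do not overlap for Slc12a3, Wnk1 and Klhl3 and overlap for Wnk4, Stk39, Oxsr1 and Cul3.

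Other properties of the DCT cells moved with the groups. Median UMIs per DCT cell were 4139.5, 4843 and 2329 in sham and 9189, 9819 and 5419 in DOCA-salt mice, and the median mitochondrial share was 29.4 to 33.5% against 24.9 to 28.7%. The summed markers of injured tubules (5 of 6 detected, Spp1, Sox9 and Lcn2 above all, Krt20 at 0) were at 1037 to 1874 CPM in sham and 3101 to 6674 CPM in DOCA-salt DCT cells. CNT markers were at 8199 to 14071 CPM in sham and 6221 to 8120 CPM in DOCA-salt, TAL markers at 2985 to 4158 CPM and 3647 to 5722 CPM, and PT markers at 535 to 1385 CPM and 399 to 656 CPM. Macrophage markers were at 6.32 to 26.1 CPM in sham and 43.7 to 48.9 CPM in DOCA-salt mice, and fibroblast markers at 0 to 1.37 CPM and 7.65 to 16.6 CPM, again without overlap. Their part in the changes of the members was not tested.

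Within the DCT, cells fell into clusters 0 (849 cells), 17 (488 cells with few UMIs, of which sham mouse 3 gave 207) and 18 (241 cells). In that order, sham mice gave 294, 327 and 92 cells and DOCA-salt mice 555, 161 and 149. In cluster 17, 5 of the 8 DCT markers counted as detected by the naming rule. Pooled levels in clusters 17 and 0 were 23.8 and 536 CPM for Pvalb and 800 and 604 CPM for Trpm6. Those of the CNT markers were 719 and 1026 CPM for Calb1 and 11267 and 1864 CPM for Slc8a1. In cluster 0, Slc12a3 was at 6846 to 8317 CPM per mouse in sham and 5084 to 5790.5 CPM in DOCA-salt, Wnk1 at 2866 to 3065 CPM and 1896 to 2101 CPM, and Klhl3 at 682 to 894 CPM and 373 to 456 CPM. None of these ranges overlapped. The 3 genes are shown because they did not overlap in all DCT cells, and the share of all genes without overlap was not counted within clusters. In cluster 17 Slc12a3 was at 7439 to 8887 CPM in sham and 2927 to 6083 CPM in DOCA-salt, without overlap, but Wnk1 (1801 to 2977 CPM and 2183 to 2290 CPM) and Klhl3 (468 to 987 CPM and 313 to 496 CPM) overlapped. In cluster 18, whose leading genes include those of the CNT (Calb1, S100g and Klk1), Slc12a3 (1653 to 4828 CPM and 2914 to 4094 CPM) and Wnk1 (1675 to 2385 CPM and 1378 to 1702 CPM) overlapped, while Klhl3 narrowly did not (208 to 335 CPM and 167 to 202 CPM, on 96 and 116 UMIs). Without cluster 17 the log2 change of Slc12a3 was -0.57 with an adjusted p of 0.0463, that of Wnk1 -0.71 and that of Klhl3 -1.11.

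The values of Slc12a3 depended on whether CNT cells were summed with DCT cells. CNT cells of sham mice were mostly in cluster 16 (457 cells, against 75 in cluster 1) and those of DOCA-salt mice in cluster 1 (392 cells, against 21 in cluster 16). Cluster 1 carried Slc12a3 at 1713 to 3318 CPM in sham and 856 to 1046 CPM in DOCA-salt mice, and cluster 16 at a pooled 48.3 CPM in sham mice. Wnk1 in cluster 1 was at 1706 to 2753 CPM in sham and 1263 to 1445 CPM in DOCA-salt, and Klhl3 at 351 to 483 CPM and 184 to 195 CPM. All 3 genes were thus lower in each DOCA-salt mouse in this cluster. It held few of the sham and nearly all of the DOCA-salt CNT cells, so unlike parts of the class are compared. The share of all genes without overlap in it was not counted. With DCT and CNT cells summed together, Slc12a3 was at 3026 CPM ± 433 in sham and 3217 CPM ± 450.2 in DOCA-salt. The fitted log2 change was -0.04 (adjusted p = 0.913), of opposite sign to the difference of the CPM means, which lack the TMM scaling of the fit. Wnk1 had a log2 change of -0.19 (adjusted p = 0.433). Klhl3 still fell, by 0.58 on the log2 scale (adjusted p = 0.0400). These sums held 713 DCT and 532 CNT cells in sham mice and 865 and 413 in DOCA-salt mice. Median UMIs were 3142 and 7996 per DCT cell and 9687 and 14795 per CNT cell. The share of DCT cells in the sums thus differed between the groups, and its part in these values was not tested.

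**Figure D3:**
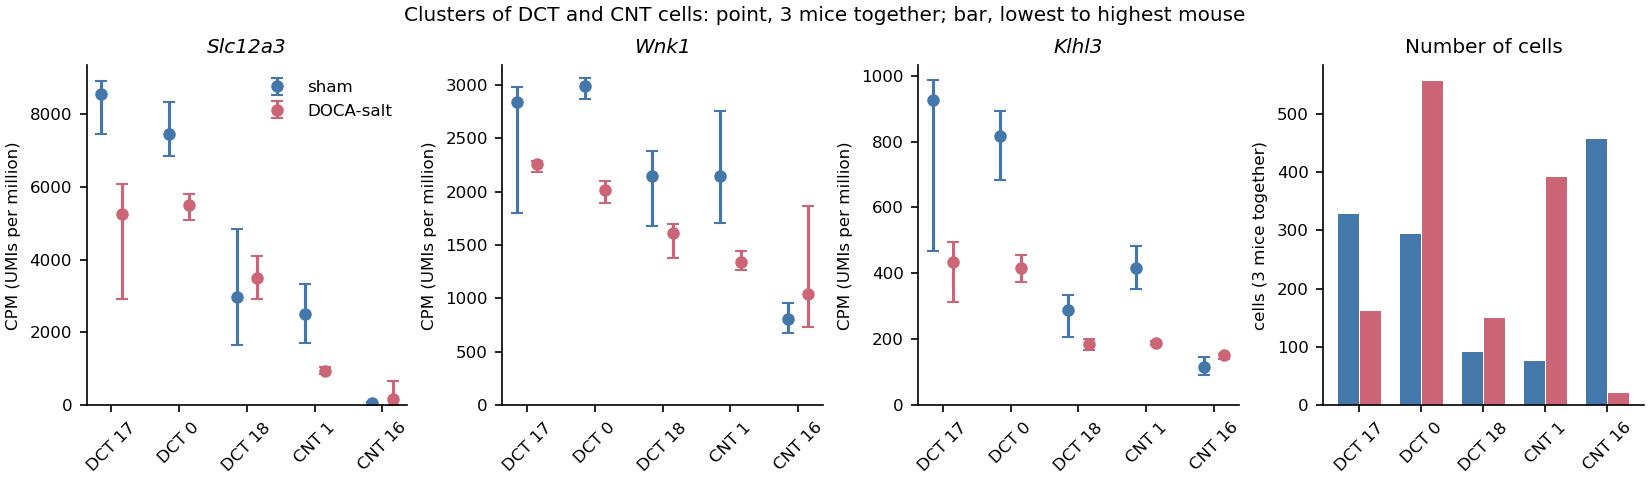
Levels of Slc12a3, Wnk1 and Klhl3 (CPM, axes from 0) in the 3 clusters of DCT cells and the 2 of CNT cells, with the 3 mice of a group pooled (points) and the lowest and highest mouse (bars), and the number of cells of each group per cluster. In clusters 0 and 1 the bars of sham and DOCA-salt mice do not overlap for any of the 3 genes, and cluster 1 holds 75 sham and 392 DOCA-salt cells. The share of all genes without overlap was not counted in these clusters.

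The size of the changes differed between selections of cells. With mitochondrial UMIs limited to 20% and the remaining cells clustered and named anew, which left 26 to 97 DCT cells per mouse, Slc12a3 fell from 10138 CPM ± 1495 to 4241 CPM ± 449.6 (log2 change -1.22, adjusted p = 0.00147), and Wnk4 fell by 0.83 on the log2 scale (adjusted p = 0.0339). With the 630 cells that met a marker rule cell by cell, 527 of them among the 1578 above, Slc12a3 fell by 1.22 (adjusted p = 0.00260) and Wnk4 by 0.73 (adjusted p = 0.0375) on the log2 scale. Wnk1 changed by -1.23 and -1.11 in these settings, and Klhl3 by -1.70 and -1.61.

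**Figure D4:**
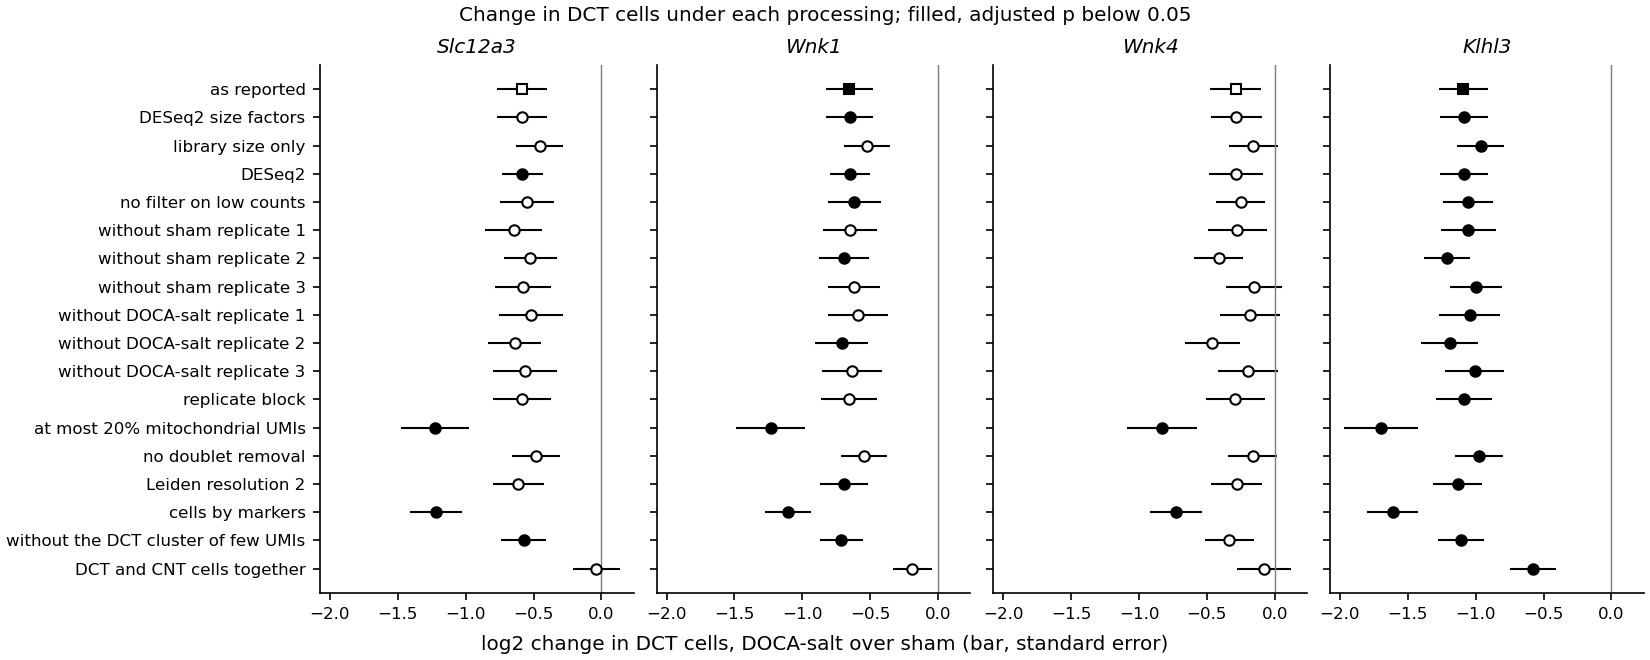
Log2 change of Slc12a3, Wnk1, Wnk4 and Klhl3 in DCT cells (DOCA-salt over sham, bars are SE) as reported (square) and under 17 alternatives, filled where the adjusted p is below 0.05. Klhl3 is filled in all 17, Wnk1 in 9, Slc12a3 in 4 and Wnk4 in 2, and all points lie below 0.

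The share of DCT cells in which a member was detected was compared after thinning each cell to 1000 UMIs, which kept 617 sham and 774 DOCA-salt cells and left out 96 and 91. Median depths were 3142 and 7996 UMIs. Klhl3 was found in 47.5% ± 6.28 of sham and 31.6% ± 1.5 of DOCA-salt DCT cells, and Wnk1 in 82.6% ± 0.633 and 75.9% ± 0.831 (exact permutation p = 0.1 for each, two-sided, the smallest that 3 against 3 mice allow). Both groups' mice were apart for both genes. Slc12a3 was found in 84.2% ± 3.75 and 87.9% ± 3.65 of cells (exact permutation p = 0.2), and after thinning to 2000 UMIs in 92.4% and 93.5%. The share of Slc12a3 was thus not lower in DOCA-salt mice, unlike its CPM. Shares this close to their upper limit, those of Wnk1 included, say little about the size of a difference in level. PT cells, as background, had a Slc12a3 UMI in 1.63% and 1.48% of cells at median depths of 9120.0 and 9235 UMIs. The shares of cells with Wnk4 (26.8% and 26.6%), Stk39 (27.7% and 27.9%), Oxsr1 (1.59% and 1.74%) and Cul3 (13.3% and 11.5%) lay close together. Without thinning, at the median depths above, the share in DOCA-salt minus that in sham mice was 1.45 percentage points for Wnk1 and -0.0844 for Klhl3.

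In other segments 3 further changes of members passed the test, each in a different gene or direction. In TAL cells Wnk1 fell. It had 614, 582 and 709 CPM in sham and 354, 272 and 339 CPM in DOCA-salt TAL cells, without overlap, a log2 change of -1.01 ± 0.15 (adjusted p = 0.00553). It was 1 of 7 members lower there, against 0.6% of all genes tested, and without DOCA-salt mouse 3 its adjusted p was 0.0545. In the same TAL cells the summed CNT markers were at 3050 to 3740 CPM in sham and 2205 to 2441 CPM in DOCA-salt mice and macrophage markers at 6.83 to 9.59 CPM and 24.1 to 34.3 CPM, both without overlap, and their part in the change of Wnk1 was not tested. Klhl3 in TAL cells had 52.7, 51.4 and 58.2 CPM in sham and 35.2, 42.7 and 40.9 CPM in DOCA-salt mice, also without overlap, but its log2 change of -0.48 ± 0.14 did not pass (adjusted p = 0.126, but 0.0220 without sham mouse 2 and 0.0470 without the filter on low counts). Wnk1 and Klhl3 were the 2 of 7 members with every DOCA-salt mouse below every sham mouse in TAL cells, as were 6.96% of all genes.

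In principal cells of the collecting duct Wnk1 rose. It had 99.6, 86.5 and 99.2 CPM in sham and 183, 128.5 and 128.1 CPM in DOCA-salt mice, a log2 change of 0.65 ± 0.16 (adjusted p = 0.0238), and was 1 of 7 members higher, against 4.56% of all genes. The groups did not overlap, and DOCA-salt mouse 1 was highest. Without that mouse the log2 change was 0.49 (adjusted p = 0.102), without sham mouse 1 it was 0.68 (adjusted p = 0.0652) and without sham mouse 3 0.70 (adjusted p = 0.0647). Cells of this class came from cluster 11 in both groups and from cluster 15 mainly in sham mice (94, 124 and 134 cells, against 9, 3 and 2). In principal cells the summed markers of injured tubules were at 589 to 645 CPM in sham and 4044 to 4919 CPM in DOCA-salt mice and macrophage markers at 3.17 to 10.5 CPM and 24.1 to 60.5 CPM, without overlap. CNT markers were at 1038 to 1550 CPM and 1549 to 2233 CPM, and median UMIs per cell at 8576 to 10476.5 and 12631 to 18004. DCT markers were lower in every DOCA-salt mouse (650 to 729 CPM in sham and 176 to 319 CPM in DOCA-salt). Their part in the rise was not tested. Wnk1 was also higher in every DOCA-salt mouse in CNT (log2 change 0.11) and PT cells (0.13). In type A (-0.20) and type B intercalated cells (-0.36) it was lower in every DOCA-salt mouse. None of these changes passed the test, and the share of all genes without overlap was not counted in these classes.

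In CNT cells Cul3 fell. It had 160, 179 and 167 CPM in sham and 151, 139 and 131 CPM in DOCA-salt mice, a log2 change of -0.43 ± 0.12 (adjusted p = 0.0275), 1 of 7 members lower against 10.1% of all genes. The groups did not overlap, the call was lost in 9 of 11 alternatives (among them, with adjusted p from 0.0517 to 0.115, all fits that left out a mouse other than sham mouse 2), and the clusters of CNT cells differed between the groups as given above. Principal cell markers, of the segment where Cul3 was highest, were at 5563 to 7365 CPM in sham and 1948 to 2563 CPM in DOCA-salt CNT cells, without overlap. CNT markers were at 41242 to 56314 CPM and 28992 to 31598 CPM, and PT markers at 501 to 919 CPM and 351 to 400 CPM. Macrophage markers were at 6.75 to 12.7 CPM and 20.1 to 35.2 CPM, and these sets did not overlap either. The part of these shifts in the fall was not tested. Cul3 was also lower in every DOCA-salt mouse in PT (log2 change -0.21), thin limb (-0.21) and principal cells (-0.32). The same held in type A (-0.17) and type B intercalated cells (-0.32) and in whole kidneys (-0.26). It did not pass the test in any of these, and the groups overlapped in TAL and DCT cells. Outside DCT and TAL cells the share of all genes without overlap was not counted. Slc12a3 had 505, 481 and 707 CPM in sham and 816, 1035 and 914 CPM in DOCA-salt CNT cells, a log2 change of 0.54 ± 0.18 (adjusted p = 0.0541). It passed the threshold in 5 of 11 alternatives, at 0.75 without sham mouse 3 (adjusted p = 0.0190), 0.71 with library size only (0.00945), 0.57 without the filter on low counts (0.00448), and 0.56 both with DESeq2's size factors (0.0439) and with DESeq2 (0.0215). Thinned as above, 9.65% ± 2.88 of sham and 26.2% ± 4.46 of DOCA-salt CNT cells had a Slc12a3 UMI (exact permutation p = 0.1).

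No member passed the test in PT (7.56% of all genes did), thin limb (0.943%), type A intercalated (2.41%) or type B intercalated cells (8.62%). Without DOCA-salt mouse 3 the log2 change of Slc12a3 in type A cells, at levels read as free RNA, was -1.67 (adjusted p = 0.0223), and without sham mouse 2 that of Wnk4 in type B cells was -0.52 (adjusted p = 0.0334). With library size only, Wnk1 (-0.52, adjusted p = 0.0304) and Cul3 (-0.48, adjusted p = 0.0409) passed in type B cells, and without the filter on low counts Slc12a3 passed in thin limb cells (-0.83, adjusted p = 0.00899), again at levels read as free RNA. Macula densa cells, of which DOCA-salt mice gave only 11 to 17, were not among the segments chosen for the test. Wnk1 there had 808, 731 and 873 CPM in sham and 426, 518 and 472 CPM in DOCA-salt mice, and Klhl3 200.9, 218 and 238 CPM against 89.7, 96.6 and 159.9 CPM (227 and 61 UMIs), both without overlap. Slc12a3 did not overlap either (11.2, 11.3 and 18.1 CPM against 0, 0 and 7.27 CPM), at levels read as free RNA. The share of all genes without overlap was not counted in this class.

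Summed over all cells of a kidney, no member passed the test, where 17.2% of all genes did (Cul3 passed with DESeq2, at -0.26 with an adjusted p of 0.0488). Slc12a3 had 107, 114 and 214 CPM in sham and 168, 219.8 and 187 CPM in DOCA-salt mice, a log2 change of 0.28 ± 0.26 (adjusted p = 0.517). Sham mouse 3 was among the highest and had the most DCT cells, and without it the log2 change was 0.69 (adjusted p = 0.0198). The share of DCT cells itself had a log2 change of 0.27 ± 0.28 (adjusted p = 0.432, exact permutation p = 0.4), and one of 0.83 without cluster 17 (adjusted p = 0.00789). Median UMIs per DCT cell, which also weigh in such sums, were 3142 in sham and 7996 in DOCA-salt mice. The sums by themselves do not tell apart the share of DCT cells, their UMIs per cell and the level within them.

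**Figure D5:**
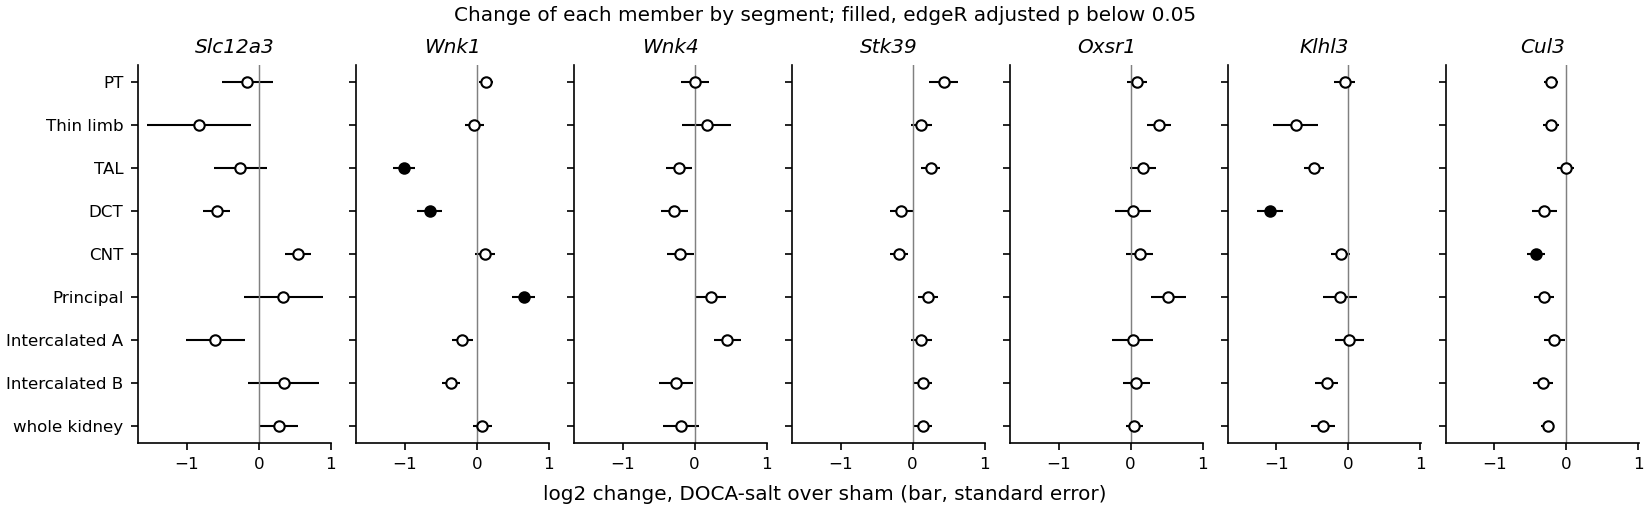
Log2 change of each gene (DOCA-salt over sham, bars are SE) in 8 segments and over whole kidneys, filled where edgeR's adjusted p is below 0.05. The filled points are Wnk1 (-1.01 in TAL, -0.65 in DCT and 0.65 in principal cells), Klhl3 (-1.09 in DCT cells) and Cul3 (-0.43 in CNT cells).

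Whether a change differed between segments was tested in a model of both segments' sums with the mouse as a block. The fall of Klhl3 in DCT cells differed from its change in TAL cells (difference -0.61 ± 0.13 on the log2 scale, adjusted p = 0.00274), principal cells (-0.95 ± 0.23, adjusted p = 0.00863) and PT cells (-1.0 ± 0.14, adjusted p = 1.72e-06). That of Wnk1 differed from its change in principal cells (-1.29 ± 0.17, adjusted p = 8.38e-06) and PT cells (-0.76 ± 0.13, adjusted p = 9.96e-05), and not past the threshold from the fall in TAL cells (0.35 ± 0.12, adjusted p = 0.0896). This last difference passed in 3 of 8 alternatives, with library size only (0.46, adjusted p = 0.00811), without sham mouse 2 (0.41, adjusted p = 0.0409) and without DOCA-salt mouse 1 (0.50, adjusted p = 0.0359). Stk39 differed between DCT and both TAL and PT cells, though it changed past the threshold in none of them, and its difference from TAL cells passed only without DOCA-salt mouse 2 among the fits that left out a mouse. Every DOCA-salt mouse was above every sham mouse for Stk39 in TAL (244 to 269 CPM in sham and 292 to 351 CPM in DOCA-salt) and PT cells (2.98 to 4.95 CPM and 5.00 to 6.46 CPM), a pattern not counted over all genes. The level of Stk39 in PT cells (5.08 CPM) was that of macrophages (5.06 CPM) and B cells (5.97 CPM), so the change on the PT side is one at background level. With library size only, neither difference of Stk39 passed (adjusted p = 0.140 and 0.0519). Without the block, the adjusted p was 0.295 for Klhl3 against TAL and 0.101 against principal cells, 0.0650 for Wnk1 against PT cells, and 0.469 and 0.270 for Stk39 against TAL and PT cells. Without DOCA-salt mouse 3 the difference of Klhl3 from principal cells was -0.83 (adjusted p = 0.0511). The clusters of principal cells differed between the groups, as given above. Their part in the differences of Klhl3 and Wnk1 from principal cells was not tested. Slc12a3 differed from TAL and PT cells only without sham mouse 3 (-1.11, adjusted p = 6.99e-04, and -0.97, adjusted p = 3.36e-04), and in both of those segments its level was of the size read as free RNA. Of the 7 members, 2 passed against TAL, 2 against principal and 3 against PT cells, where 5.88%, 6.05% and 9.28% of all genes did. Against CNT cells, a comparison added after the clusters were seen, 3 of 7 passed (7.53% of all genes), among them Slc12a3 (-1.16 ± 0.17, adjusted p = 1.45e-05). Within CNT cluster 1 all 3 genes were lower in each DOCA-salt mouse, with the limits given above.

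Few genes of the wider pathway passed the test in DCT cells. Of 60 genes in 8 lists, 57 were tested, 5 were lower and 0 higher (2.49% and 3.81% of all genes), and the median log2 change was -0.23 (for the 53 that are no members, 3 of 50 tested lower and a median of -0.20, against -0.01 for all genes). Wnk2 and Wnk3 were too low to test. In the list of SPAK and OSR1 with the scaffold proteins that activate them (Cab39 and Cab39l), 0 of 4 passed, with a median of -0.06. In the list of ubiquitin ligase parts 1 of 8 was lower, Klhl3 itself, with a median of 0.07, and Klhl2, its close relative, had a log2 change of 0.38 ± 0.19 (adjusted p = 0.288). Of the phosphatases and their regulators 0 of 8 passed (median 0.07), and of the genes of basolateral transport 0 of 8 (median -0.08).

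Of the cation-chloride cotransporters 1 of 6 was lower (median -0.39). It was Slc12a1, the cotransporter NKCC2 of the TAL, which fell from 122 CPM ± 23.9 to 60.0 CPM ± 22.6 in DCT cells (log2 change -1.16 ± 0.22, adjusted p = 0.00289). Of the other TAL markers in DCT cells, Cldn10 was at 30.3 to 40.1 CPM in sham and 21.3 to 23.7 CPM in DOCA-salt mice, without overlap. Ptger3 (12.6 to 20.5 CPM and 26.4 to 42.2 CPM) and Enox1 (at most 5.35 CPM and 5.67 to 21.3 CPM) were higher in every DOCA-salt mouse. Kcnj1 (399 to 623 CPM and 407 to 490 CPM) and Umod (2420 to 3470 CPM and 3088 to 5124 CPM) overlapped, as did the sum of all TAL markers. Of the steroid receptors and other upstream signals 1 of 10 tested was lower (median -0.47): Fkbp5, a chaperone of steroid receptors, fell from 57.4 CPM ± 7.53 to 36.7 CPM ± 1.29 (-0.76 ± 0.18, adjusted p = 0.0146). The mineralocorticoid receptor Nr3c2 was at 416 CPM ± 112 and 313 CPM ± 31.2 (-0.55 ± 0.19, adjusted p = 0.110), and the kinase Sgk1, a target of that receptor, at 24.2 CPM ± 6.86 and 19.0 CPM ± 8.83 (adjusted p = 0.380). Of the other DCT genes, 6 of which were among the markers that named DCT cells (Pvalb, Trpm6, Sall3, Emx1, Pgam2 and Tmem52b), so that their values are not independent of the choice of cells, 1 of 11 was lower (median -0.42): Egf, the growth factor that supports magnesium uptake, fell from 2186 CPM ± 437 to 979 CPM ± 81.7 (-1.29 ± 0.19, adjusted p = 3.43e-04). Parvalbumin (Pvalb), the calcium-binding protein of the early DCT, was at 690.3 CPM ± 222 and 462 CPM ± 114 (-0.70 ± 0.22, adjusted p = 0.0703), and the magnesium channel Trpm6 at 649 CPM ± 117 and 532 CPM ± 59.0 (-0.42 ± 0.18, adjusted p = 0.220).

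As a setting for these changes, the 5 genes that rose most in DCT cells were Creb5 (0 UMIs in sham and 41.4 CPM in DOCA-salt mice, at least 46.4-fold higher against a floor of 3 UMIs over the sham group), S100a6 (log2 change 5.32), the injury marker Lcn2 (4.59), Mgp (4.58) and Nrxn3 (4.15). The 5 that fell most were Pde10a (-2.72), Rtl4 (-2.59), the glucagon receptor Gcgr (-2.39), Cyp4b1 (-2.06), which is one of the PT markers, and 4930556J24Rik (-1.93). Among the rises, Mgp is the leading gene of the fibroblast cluster, and fibroblast markers were higher in DOCA-salt DCT cells, as given above. The part of RNA from other cells in its rise was not tested.

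Across 20 cell classes, the genes most like Slc12a3 were Slitrk4 (Pearson r = 0.945 of log2 CPM plus 1), Lrrc52 (0.904), the DCT transcription factor Sall3 (0.847), Ctxnd1 (0.806) and Emx1 (0.787), of which Sall3 and Emx1 are among the markers that defined DCT cells. For Wnk4, Inpp5j (0.956) and Fgf9 (0.933) were among the most like it. The genes that came first were, for Wnk1, Rab27a (0.716), Ssh2 (0.697) and Gdap2 (0.690), and for Stk39 Grik5 (0.909), Tmem38a (0.865) and Hk1 (0.849). For Klhl3 they were Mrpl37 (0.900), Gm42937 (0.897) and Cpt1a (0.883), for Oxsr1 Pcnx3 (0.976), Ap3s2 (0.973) and Slc35a4 (0.969), and for Cul3 Oga (0.942), Gak (0.915) and Arid4b (0.898). The classes share their libraries, so these values are descriptions, and a ranking by Spearman's rho named none of the same genes for Slc12a3, Wnk1, Oxsr1 and Klhl3.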

How the data were processed

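Kidney cells of 3 sham and 3 DOCA-salt mice were measured. The authors deposited raw UMI counts per gene and barcode for each mouse, made with Cell Ranger on GRCm39 (release 8.0.1 per the file headers, 9.0.0 in the submitters' processing notes, which also name Seurat 4.0.0 and R 4.0.3). The release of the annotation and the counting of intron reads are not given in the sources used here.

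Barcodes with at least 170 genes, 500 UMIs, at most 50% mitochondrial and 5% hemoglobin UMIs were kept. Doublets were removed by Scrublet score (0.8% per 1000 barcodes, scanpy 1.11.5). Cells were clustered (2000 variable genes without the members, 30 components, 15 neighbors, Leiden resolution 1, python-igraph 0.11.9), and distal clusters were pooled and clustered again. Libraries were not integrated before clustering, whereas the paper removed batch effects with Harmony. Where clusters differ between the groups, other cells and a shift of the same cells cannot be told apart. Each cluster was named from fixed markers. Python 3.11.15, numpy 2.4.6, scipy 1.17.1 and pandas 2.3.3 were used.

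UMIs were summed per mouse and segment (at least 10 cells) and tested with edgeR 4.0.16 in R 4.3.3 (filterByExpr, TMM, quasi-likelihood F test, Benjamini-Hochberg adjustment over all genes tested, threshold 0.05). SE is the log2 change over the square root of F. Numbers of cells were tested in the same way with each mouse's cells as the total. CPM are without TMM scaling. Libraries are treated as separate mice as labelled, so p-values measure the spread between them. The fit was tested on simulated data, where it recovered few of the smaller changes. A member that did not pass is therefore not shown to be unchanged. Mouse numbers do not pair the mice (correlations of same-numbered deviations -0.07, -0.28 and 0.05). DESeq2 1.42.0 and the other alternatives are given in the closing section.

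The members and gene lists were chosen with earlier results of these data known. Named genes are the members, list genes past the threshold, the 5 largest rises and falls in DCT cells (mean of at least 20 CPM, no overlap) and the genes most like each member. Nr3c2, Sgk1, Klhl2, Pvalb and Trpm6 were named besides, after their values were seen. One of the genes most like Wnk4 is not reported here. RefSeq promoters (GRCm38.p6) were used for sequence only.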

Additional observations from a re-analysis of the deposited data

Results flagged for a closer look

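In all, 10 differences of a change between DCT cells and another segment passed the test of the difference itself (edgeR, adjusted over all genes). Without the mouse as a block, 5 of them were above the threshold (Klhl3 against TAL and principal cells, Wnk1 against PT cells and Stk39 against TAL and PT cells). For Klhl3 the log2 change in DCT cells minus that elsewhere was -0.61 against TAL cells, -0.95 against principal cells, -1.0 against PT cells and -1.0 against CNT cells. For Wnk1 it was -1.29 against principal cells, -0.76 against PT cells and -0.79 against CNT cells. In DCT and TAL cells the level of Wnk1 was lower in every DOCA-salt mouse, and in principal cells it was higher in every DOCA-salt mouse.

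For Stk39 the difference was -0.39 against TAL cells and -0.55 against PT cells, although no single segment passed, and in PT cells its level (5.08 CPM) was that of macrophages (5.06 CPM) and B cells (5.97 CPM). The adjusted p of the difference from PT cells was 0.200 without sham mouse 2 and 0.0923 without DOCA-salt mouse 3. For Slc12a3 it was -1.16 against CNT cells, a class whose clusters differed between the groups (457 sham and 21 DOCA-salt cells in cluster 16, 75 and 392 in cluster 1). Within cluster 1 the pooled level was 417 CPM in sham and 188 CPM in DOCA-salt mice for Klhl3, 2145 and 1346 CPM for Wnk1 and 2510.4 and 944 CPM for Slc12a3. This cluster held few of the sham and most of the DOCA-salt CNT cells, and these genes were lower in it. The CNT marker Calb1 was also lower in it, at 3498 to 6866 CPM in sham and 1992 to 2427 CPM in DOCA-salt mice. The part of the makeup of CNT cells, between and within clusters, in the 3 differences from them was not tested.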

How the results depend on the processing

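Limits: 3 mice per group set the precision, nephrectomy goes with DOCA-salt, and RNA counts hold nothing on phosphorylation. Klhl3 in DCT cells kept its direction and its call in all 17 alternatives (-1.70 to -0.58). The other DCT values, without a cause tested, moved as follows. With library size only, 585 genes were higher, and the log2 change of Wnk1 was -0.52 (adjusted p = 0.0625). Without a filter on low counts 608 genes were higher and 383 lower. DESeq2 called Slc12a3 (-0.58, adjusted p = 0.00491). With at most 20% mitochondrial UMIs 386 genes were lower, Slc12a3 was at -1.22 and Wnk4 at -0.83, and Oxsr1 was not tested. Without doublet removal 147 genes were lower and Wnk1 was at -0.54 (adjusted p = 0.0813). With cells taken by markers Slc12a3 was at -1.22, Wnk4 at -0.73 and Oxsr1 at -0.38. Chosen after seeing the data, leaving out the DCT cluster of few UMIs gave -0.57 for Slc12a3, -0.087 for Oxsr1 and 0.83 for the share of DCT cells, and DCT and CNT cells together gave 1004 genes higher, 880 lower and -0.19 for Wnk1. The total of a mouse's cells is itself the library-size setting for shares.

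With the mouse number as a replicate block, 151 genes were lower and 269 higher in DCT cells, Wnk1 was at -0.66 (adjusted p = 0.0904), Klhl3 at -1.09 (adjusted p = 0.00514), Cul3 in CNT cells at -0.43 (adjusted p = 0.0965) and Wnk1 in principal cells at 0.64 (adjusted p = 0.0706). Of these member changes, only that of Klhl3 stayed below the threshold. The paper describes no pairing of the mice by number. Mouse 3 had the lowest median UMIs per DCT cell in both groups (2329 in sham and 5419 in DOCA-salt). Whether mice of the same number shared handling was not tested.

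Leaving out each mouse in turn gave 197 to 495 genes higher and 87 to 445 lower in DCT cells, -0.71 to -0.59 for Wnk1 and -0.13 to 0.18 for Oxsr1. Elsewhere the sign of log2 changes that were not called turned. In PT cells the ranges were -0.47 to 0.42 for Slc12a3, -0.18 to 0.17 for Wnk4, -0.029 to 0.21 for Oxsr1 and -0.19 to 0.045 for Klhl3. In thin limb cells they were -2.02 to 0.21 for Slc12a3, -0.11 to 0.051 for Wnk1 and -0.11 to 0.42 for Wnk4. They were -0.57 to 0.55 for Slc12a3 and -0.075 to 0.022 for Cul3 in TAL cells, -0.38 to 0.022 for Wnk4 in CNT cells and -0.51 to 0.81 for Slc12a3 in principal cells. In type A cells they were -0.18 to 0.40 for Oxsr1 and -0.11 to 0.27 for Klhl3, in type B cells -0.029 to 1.15 for Slc12a3, -0.52 to 0.039 for Wnk4 and -0.066 to 0.20 for Oxsr1. In whole kidneys they were -0.0050 to 0.23 for Wnk1, -0.45 to 0.040 for Wnk4 and -0.022 to 0.14 for Oxsr1. The change in DCT cells minus that elsewhere ranged from -0.26 to 0.024 (TAL), -0.26 to 0.22 (PT) and -0.35 to 0.087 (CNT) for Oxsr1, from -0.054 to 0.12 (principal), -0.17 to 0.023 (PT) and -0.0064 to 0.30 (CNT) for Cul3, and from -0.071 to 0.12 (CNT) for Stk39.

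Scaling turned the sign of further values close to 0. With library size only, Klhl3 was at 0.0069 in PT, 0.062 in CNT and -0.045 in type A cells, Cul3 at 0.0090 in TAL, Oxsr1 at -0.034 in type A and -0.075 in type B, and Stk39 at -0.018 in type B cells, with differences of 0.021 for Wnk4 (DCT minus TAL) and -0.0029 for Stk39 (DCT minus CNT). Wnk4 in PT cells was at -0.0040 with DESeq2's size factors and -0.0044 with DESeq2, which put Oxsr1 in type A cells at -0.0077.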
